A study of Mus musculus with 2 samples.

Results

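The 10 genes described here belong to the extracellular protease system and were followed across the cells of the inflamed mouse retina: 4 inhibitors (Timp1, Timp2, Timp3 and Timp4) and 6 matrix metalloproteinases (Mmp2, Mmp3, Mmp8, Mmp9, Mmp12 and Mmp14). They were picked by gene symbol, are 10 of the 32285 features counted, out of 26 Mmp and Timp symbols among them, and all 10 had UMIs (unique molecular identifiers, 1 per captured RNA molecule) in both libraries. Every retina had received lipopolysaccharide (LPS), a bacterial trigger of innate immunity, at 0.5 µg per eye in the vitreous. The knockout library came from GLAST-CreER; Atg5fl/fl mice that had also been given 4-hydroxy-tamoxifen, and the control library from Atg5fl/fl mice with no Cre and no tamoxifen listed. GLAST-CreER drives a tamoxifen-dependent Cre from the promoter of the glutamate transporter gene Slc1a3, which is active in Müller glia, the radial glia of the retina, and also in astrocytes. Atg5 encodes a protein needed to build autophagosomes. Each library pooled 6 retinas, there was 1 library per group and none without LPS, so no difference has a replicate check, no test between groups was possible, and genotype, Cre, drug and library cannot be told apart. Ages and the time between injection and harvest are not given in the sources used here.

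Matrix metalloproteinases are zinc-dependent enzymes that cut collagens, laminins, elastin and other proteins outside the cell, and also cytokines and receptors. Most are secreted as inactive precursors, and Mmp14 is instead anchored in the plasma membrane. TIMPs block their active site. In the retina the family is known for opening the blood-retinal barrier, for leukocyte entry and for remodelling of the vitreoretinal border during inflammation.

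The members lie on 8 chromosomes of the mm10 build (GRCm38; positions from GENCODE M21). Timp1 lies at chrX:20870166-20874735 on the plus strand, Timp2 at chr11:118301069-118355740 on the minus strand, Timp3 at chr10:86300372-86349506 on the plus strand and Timp4 at chr6:115241892-115252205 on the minus strand. Mmp12 (chr9:7344381-7369499), Mmp3 (chr9:7445822-7455975) and Mmp8 (chr9:7558456-7568485) are neighbours on the plus strand of chromosome 9. Mmp9 lies at chr2:164940780-164955850, Mmp2 at chr8:92827291-92853420 and Mmp14 at chr14:54431612-54445364, all on the plus strand. Timp1, Timp3 and Timp4 overlap the synapsin genes Syn1, Syn3 and Syn2 on the opposite strand, and Mmp12 overlaps Mmp1b in the same way. Whether the counting used strand is not given in the sources used here. Without strand, reads of such partners could not be told apart, which makes these 4 counts uncertain. Timp2 shares its strand with the overlapping Cep295nl. In amacrine-like cells, Syn1 stood at 156 CPM in the knockout and 142 CPM in the control library, where Timp1 stood at 31.0 and 16.8 CPM.

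RefSeq promoter windows (GRCm38.p6) matched 8 of the 10 members. The 250 bases before the annotated start are printed for Mmp3, Mmp12 and Mmp8, because they are neighbours in the genome, and for Timp1, because its level varied widely among Müller glia-like cells. Capitals mark matches, on either strand, to the letters TGANTCA, which AP-1 factors can bind, and to the core promoter letters TATAAA. The windows are chr9:7445572-7445821 for Mmp3, chr9:7347124-7347373 for the second annotated start of Mmp12, chr9:7558179-7558428 for Mmp8 and chrX:20869916-20870165 for Timp1, all on the plus strand.
Mmp3: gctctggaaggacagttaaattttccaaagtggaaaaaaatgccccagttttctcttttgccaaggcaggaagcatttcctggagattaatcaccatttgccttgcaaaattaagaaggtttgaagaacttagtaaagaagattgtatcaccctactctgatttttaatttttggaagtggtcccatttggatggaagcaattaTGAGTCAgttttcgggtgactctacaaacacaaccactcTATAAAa
Mmp12: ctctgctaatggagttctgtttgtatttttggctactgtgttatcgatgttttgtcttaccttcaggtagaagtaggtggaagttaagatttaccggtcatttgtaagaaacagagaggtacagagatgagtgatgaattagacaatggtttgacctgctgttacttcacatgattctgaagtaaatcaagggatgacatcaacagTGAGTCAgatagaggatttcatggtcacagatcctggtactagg
Mmp8: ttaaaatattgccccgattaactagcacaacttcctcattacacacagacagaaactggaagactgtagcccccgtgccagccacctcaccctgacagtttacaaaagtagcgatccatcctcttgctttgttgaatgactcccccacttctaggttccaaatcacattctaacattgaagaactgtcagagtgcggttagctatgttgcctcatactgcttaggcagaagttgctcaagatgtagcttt
Timp1: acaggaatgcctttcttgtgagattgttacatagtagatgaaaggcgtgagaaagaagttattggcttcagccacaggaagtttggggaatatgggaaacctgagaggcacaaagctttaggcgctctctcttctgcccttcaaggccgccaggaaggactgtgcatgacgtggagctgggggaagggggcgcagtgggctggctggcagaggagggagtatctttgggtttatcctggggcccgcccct
The same 7 letters, TGAGTCA, stood 46 to 40 bases before the start of Mmp3 and 44 to 38 bases before the second start of Mmp12. The window of the first annotated Mmp12 start (chr9:7344147-7344396) held none of the motifs searched. TGANTCA occurred in 6.75% of the 32851 mouse promoter windows of this length, and TATAAA, found 7 to 2 bases before the Mmp3 start, in 12.4%. The Mmp8 and Timp1 windows held neither. None of the 4 windows printed held the NF-kB motif (4.65% of all windows did) or TTCNNNGAA (STAT, 7.02%). A match describes these letters only.

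The knockout library held 50676223 UMIs in 5229 barcodes and the control library 43669961 UMIs in 8690 barcodes, and 15 barcodes occurred in both. Filtering kept 4662 knockout cells with a median of 6808 UMIs, and 8274 control cells with a median of 1396 UMIs. Rod-like cells made up 430 of the knockout and 3277 of the control cells, and they were shallow. Müller glia-like cells numbered 589 in the knockout and 417 in the control library, with medians of 20174 and 14446 UMIs. All 12 Müller glia markers were detected in them in both libraries, together at 8864 CPM in the knockout and 12004 CPM in the control (CPM, counts per 1e6, the UMIs of a gene over all UMIs of the class). Rod markers, 10 of 10 detected, summed to 662 CPM in knockout and 1955 CPM in control Müller glia-like cells, neutrophil markers to 84.0 CPM (9 of 11) and 299 CPM (11 of 11), and the monocyte list to 73.8 CPM (10 of 12) and 59.2 CPM (12 of 12). Erythroid markers summed to 1384 CPM in knockout (6 of 6) and 6.83 CPM in control cells (4 of 6). Their part in the results below was not tested. Atg5 itself stood at 18.6 CPM in knockout and 20.5 CPM in control Müller glia-like cells. Counts from 3' tags need not cover a deleted exon, so this checks nothing about the deletion. Clusters without a name held 1127 knockout and 2796 control cells. A cluster among them, called N7 here (47 knockout and 58 control cells, medians of 26831 and 59029 UMIs), was led by Chil1, Lcn2, C3, Orm1 and Grem1. Its Müller markers summed to 8924 CPM in the knockout and 8531 CPM in the control cells. Rlbp1, a defining Müller gene, was at 10.45 CPM in the knockout and 9.56 CPM in the control. This was under the 50 CPM asked for the name, and the cluster was left unnamed. By the mean log2 level of a list over the median cluster, N7 scored 2.79 for Müller glia and next 1.74 for astrocytes. The astrocyte list came second in several named Müller glia-like clusters too. Whether N7 holds astrocytes was not tested. Another, N10 (60 knockout and 18 control cells), carried Müller markers at 5214 and 6606 CPM beside neutrophil markers at 5433 and 15565 CPM.

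The members split among cell classes. Of the 10 members, 2 (Timp1 and Timp3) had their highest CPM of 10 classes in Müller glia-like cells in both libraries, which 5.98% of 15845 genes did. For monocyte and macrophage-like cells it was 2 (Mmp12 and Mmp14) against 6.63% of genes, and for neutrophil-like cells 2 (Mmp8 and Mmp9) against 4.58%. Timp4 was highest in amacrine-like cells in both libraries, but not when cells were called by markers or thinned to 2000 UMIs. With the mean of per-cell CPM its highest class in the knockout was horizontal-like. Timp2, Mmp2 and Mmp3 had different highest classes in the knockout and the control library. The call for Mmp12 rested on a few cells: without the top 5 cells of each class its highest class was Müller glia-like in both libraries, and with the mean of per-cell CPM or with cells called by markers it was Müller glia-like in the control.

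**Figure D1:**
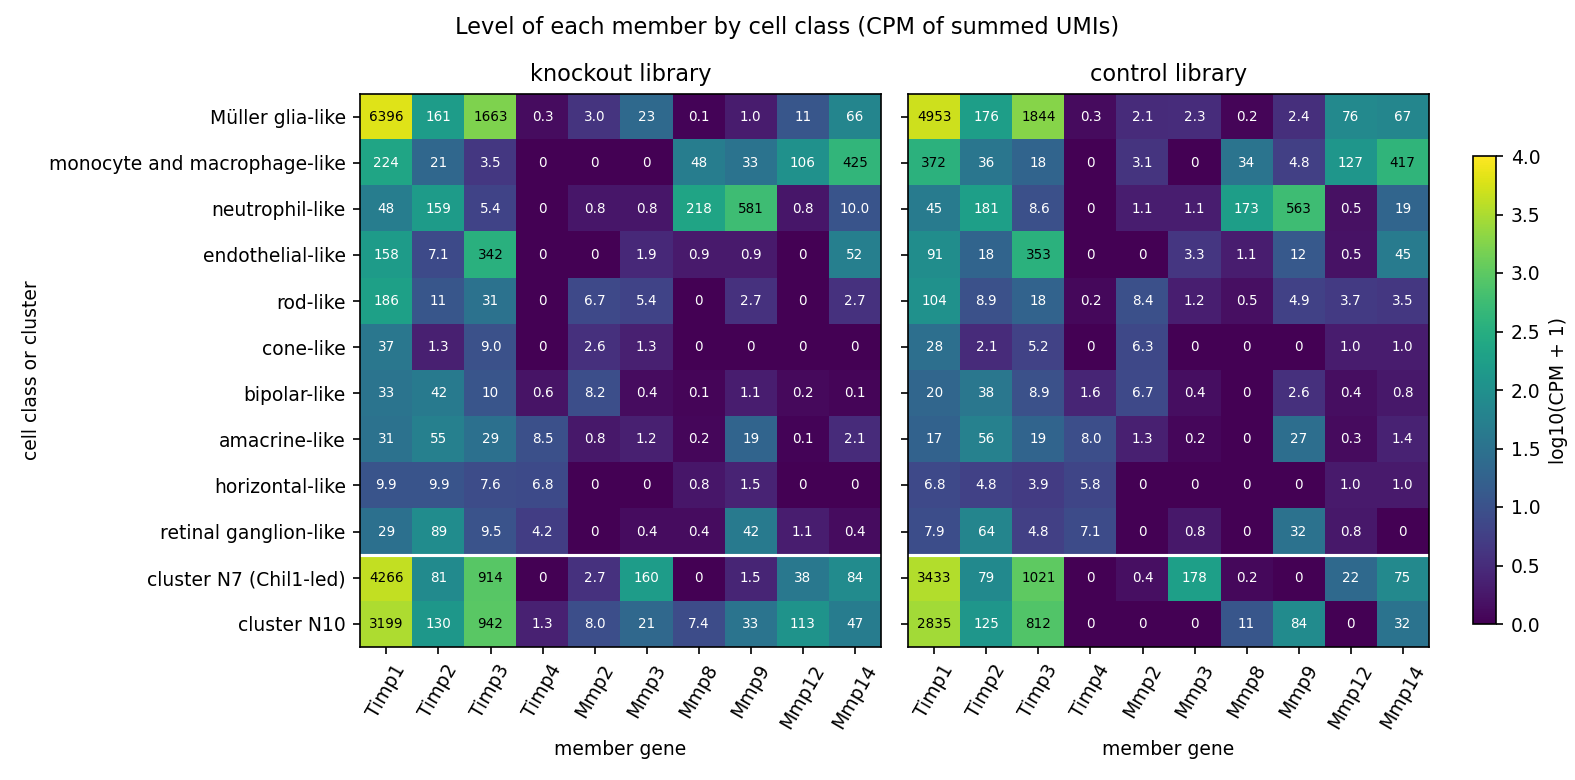
CPM of summed UMIs for each member (columns) in each cell class and in 2 unnamed clusters (rows), knockout library left and control library right; the colour scale is log10(CPM + 1). Timp1 stands at 6396 and 4953 CPM in Müller glia-like cells, Mmp9 at 581 and 563 CPM in neutrophil-like cells and Mmp14 at 425 and 417 CPM in monocyte and macrophage-like cells.

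Timp1, a secreted inhibitor that is induced in reactive glia and also acts as a cytokine, was found mostly in Müller glia-like cells. They held 81.2% of all Timp1 UMIs of the knockout and 63.6% of those of the control library, and N7 held a further 11.8% and 30.1%. Its level in Müller glia-like cells was 6396 CPM in the knockout (95% Poisson interval 6351 to 6442) and 4953 CPM in the control library (4900 to 5007), a ratio of 1.29 (1.27 to 1.31). These and all other intervals cover counting error only. The next classes were monocyte and macrophage-like cells, at 224 CPM in the knockout and 372 CPM in the control with 81.9% and 63.1% of the UMIs in 5 cells, and rod-like cells, at 186 and 104 CPM. In horizontal-like cells, which are neurons and were deeply sequenced (medians of 34263 and 40789 UMIs), 28.2% of knockout and 22.6% of control cells held a Timp1 UMI. Their level was 9.85 CPM in the knockout and 6.77 CPM in the control. Amacrine-like cells with a UMI numbered 247 of 1124 in the knockout and 93 of 620 in the control, at 31.0 and 16.8 CPM, and 21.2% and 15.7% of bipolar-like cells held one, at 33.1 and 19.5 CPM. With cells thinned to 2000 UMIs the shares were 8.09% and 4.58% in amacrine-like cells, 6.26% and 5.39% in bipolar-like cells, and 1 of 38 and 0 of 28 in horizontal-like cells, where the exact binomial intervals reach 13.8% and 12.3%. The part of free RNA in these levels was not tested. Müller glia-like cells stood apart, with 96.3% in the knockout and 69.8% in the control, or 91.2% and 62.0% with cells thinned to 2000 UMIs.

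The libraries differed in how many Müller glia-like cells had no Timp1 UMI. Among cells of at least 5000 UMIs, 11 of 511 knockout cells had no Timp1 UMI (2.15%, exact binomial interval 1.08 to 3.82), against 71 of 273 control cells (26.0%, 20.9 to 31.6). The median depths of these cells were 21318 and 21112 UMIs. The median Timp1 level per cell was 5440 CPM in the knockout and 2476 CPM in the control, while the highest cells reached 35108 and 22522 CPM. Cells with no Timp1 UMI were thus a larger share of the control than of the knockout library. A count of 0 in a cell allows up to 3 counts of its total, so a low level in these cells cannot be told from none. No test between the 2 libraries is possible.

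The 71 control cells with no Timp1 UMI also differed from the others in further genes, in both directions. Lcn2, an acute-phase siderophore binder, was at 3842 CPM in them, against 34002 CPM in the 202 control cells with Timp1. Glul, the glutamine synthetase of resting Müller glia, was at 3881 against 1058 CPM, Rlbp1 at 861 against 225 CPM, and Gfap, the intermediate filament of gliosis, at 28.5 against 262 CPM. Timp3 was higher in the cells with no Timp1 UMI, at 3284 against 1561 CPM. So were the inflammatory genes Cxcl10, a chemokine, at 480 against 150 CPM, and Socs3, a brake on cytokine signalling, at 215 against 129 CPM, while the complement gene Cfb was lower, at 116 against 182 CPM. In the knockout library the 11 cells with no Timp1 UMI had Lcn2 at 23501 CPM, against 23912 CPM in the 500 others. Some contrasts ran the other way than in the control, and others the same way. Timp3 was lower in the 11 cells, at 1289 against 1688 CPM, and Cfb higher, at 403 against 134 CPM. Cxcl10 was at 175 against 331 CPM and Socs3 at 48.2 against 62.1 CPM. Rlbp1 was again higher in cells with no Timp1 UMI, at 263 against 164 CPM. Glul was also higher in them, at 912 against 829 CPM, and Gfap again lower, at 206 against 227 CPM. The counting intervals of Socs3, Glul and Gfap overlapped between the knockout cells with and without Timp1. Across control cells of at least 5000 UMIs, the Spearman correlation of Timp1 CPM was 0.54 with Lcn2, -0.63 with Rlbp1 and -0.28 with Timp3 (n = 273 cells). Across knockout cells it was 0.20, -0.28 and -0.13 (n = 511). These cells share 1 library each and the values are a description.

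**Figure D2:**
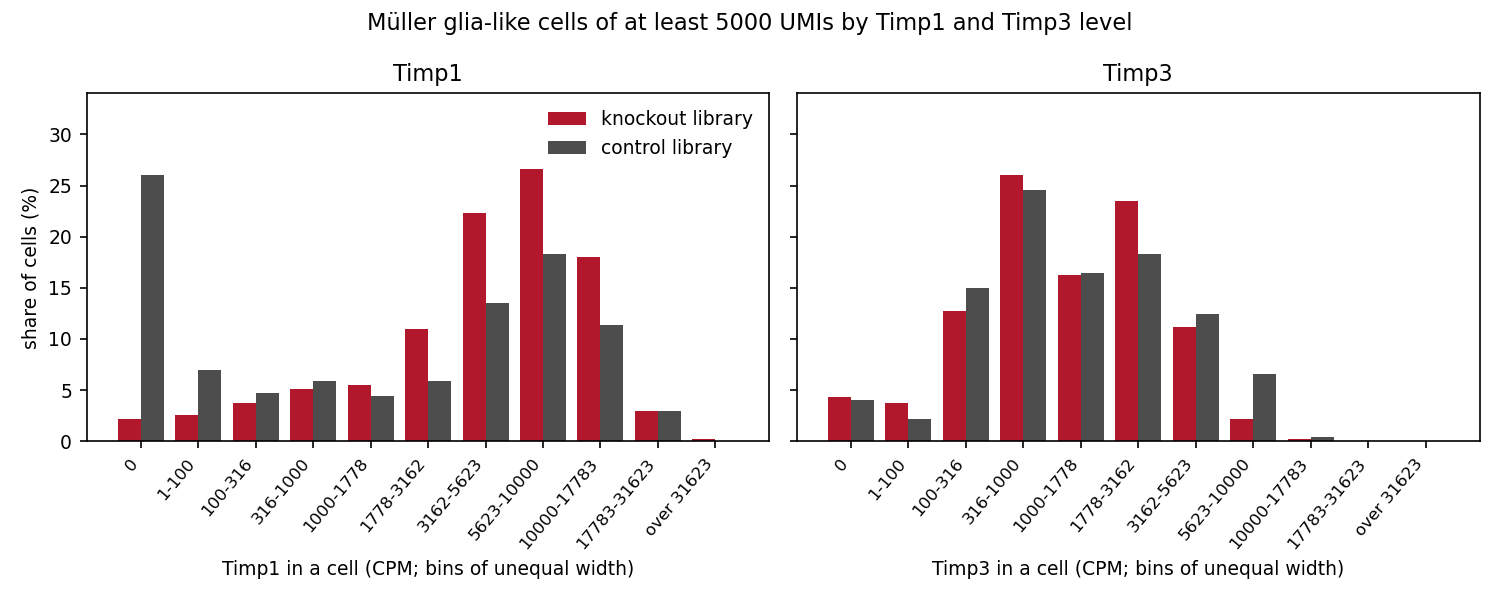
Share of Müller glia-like cells of at least 5000 UMIs (511 knockout, 273 control) in each bin of Timp1 (left) or Timp3 (right) CPM per cell; bins have unequal width. The bin with no Timp1 UMI holds 2.15% of knockout and 26.0% of control cells, while Timp3 is at 0 in 4.31% and 4.03%.

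Most of the control cells with no Timp1 UMI (58 of 71) lay in 1 cluster, N5, which held 6 knockout and 130 control cells; by contrast N1 held 214 and 36. Timp1 or Timp3 was among the leading genes of several of these clusters, so levels between clusters are a description. In N5, Timp1 was at 742 CPM in the knockout and 381 CPM in the control cells. Without N5 the Timp1 ratio of Müller glia-like cells was 1.00. Within clusters its direction varied: in N1 it was at 7461 CPM in the knockout and 6147 CPM in the control, in N3 at 8137 and 8459 CPM, in N8 at 5657 and 5552 CPM, in N6 at 3050 and 3543 CPM, and in N9 at 4599 and 6868 CPM (12 control cells). In the shallow N2 (medians of 2738 and 1369 UMIs) it was at 4839 and 2102 CPM. N1 held more Müller glia-like cells than any other cluster in the knockout library, and N5 did in the control library. Without N5, 10 of 506 knockout cells of at least 5000 UMIs (1.98%, 0.952 to 3.60) and 13 of 182 control cells (7.14%, 3.86 to 11.9) had no Timp1 UMI.

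**Figure D3:**
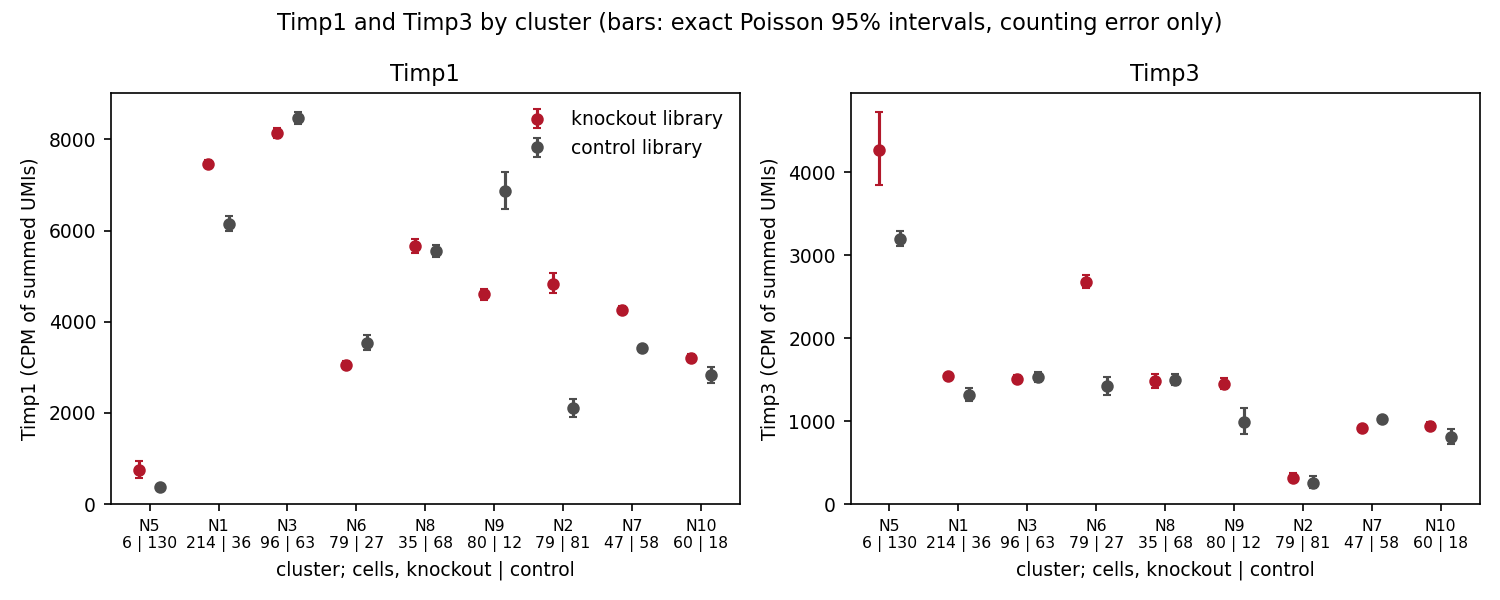
Timp1 (left) and Timp3 (right) CPM of summed UMIs in each Müller glia-like cluster (N5, N1, N3, N6, N8, N9, N2) and in the unnamed N7 and N10, knockout in red left of control in grey; bars are exact Poisson 95% intervals and the numbers under each cluster are its cells. N5 is lowest in Timp1, at 742 and 381 CPM, and highest in Timp3, at 4269 and 3202 CPM.

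Timp3, the inhibitor that binds to the extracellular matrix and is mutated in human Sorsby fundus dystrophy, was at 1663 CPM in knockout and 1844 CPM in control Müller glia-like cells, a ratio of 0.902 (0.882 to 0.923). Without N5 the ratio was 1.17. Endothelial-like cells followed at 342 CPM in the knockout and 353 CPM in the control, a ratio of 0.968 (0.870 to 1.08). In the clusters the highest values were those of N5, at 4269 CPM in the knockout and 3202 CPM in the control, and in N6 Timp3 was at 2683 and 1423 CPM. Syn3, on the other strand at this locus, was at 196 CPM in knockout and 233 CPM in control Müller glia-like cells, above its 137 and 139 CPM in amacrine-like neurons.

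Timp2, which both inhibits metalloproteinases and helps Mmp14 to activate the Mmp2 precursor, was spread more widely. It was at 161 CPM in knockout and 176 CPM in control Müller glia-like cells, a ratio of 0.914 (0.849 to 0.984), and at 159 and 181 CPM in neutrophil-like cells, a ratio of 0.875 (0.733 to 1.04). The counting intervals of these classes overlapped in both libraries. Retinal ganglion-like cells followed at 88.6 CPM in the knockout and 64.3 CPM in the control, and amacrine-like cells at 55.1 and 56.5 CPM. Cone-like cells had 1 and 2 UMIs. Timp2 did not pass 1.5-fold in Müller glia-like cells, and without N5 its ratio was 1.14.

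Timp4, the family member with a restricted tissue range, was rare, with 132 UMIs in the knockout and 88 in the control library. Amacrine-like cells held 68.9% of them in the knockout and 56.8% in the control, at 8.53 and 8.02 CPM. Horizontal-like cells, at 6.82 and 5.80 CPM, and retinal ganglion-like cells, at 4.24 and 7.15 CPM, lay within overlapping counting intervals. Müller glia-like cells had 4 and 2 UMIs. Syn2, the opposite-strand partner, was at 143 CPM in knockout and 120 CPM in control amacrine-like cells.

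Among the proteases, Mmp9 (gelatinase B) and Mmp8 (neutrophil collagenase), both stored in neutrophil granules, marked neutrophil-like cells (164 knockout, 225 control). Mmp9 was at 581 CPM in the knockout and 563 CPM in the control, a ratio of 1.03 (0.940 to 1.14), and 81.7% and 72.9% of these cells held a UMI of it. Rod-like cells, which should lack it, held a UMI in 0.465% and 0.549% of cells, at medians of 1039 and 1117 UMIs against 7304 and 7416 in neutrophil-like cells. With cells thinned to 2000 UMIs the shares in neutrophil-like cells were 55.0% and 49.8%. Mmp8 was at 218 CPM in the knockout and 173 CPM in the control, a ratio of 1.26 (1.07 to 1.48), and was found in 41.5% and 28.9% of the cells, or 20.6% and 14.6% after the same thinning. Both genes were detected together in 58 knockout and 59 control cells, and Mmp8 without Mmp9 in 10 and 6. In monocyte and macrophage-like cells Mmp8 was at 48.5 CPM in the knockout and 34.1 CPM in the control, where 1 cell held 44 of 56 and 26 of 78 UMIs.

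Mmp9 was also found in neurons. In the amacrine-like cluster A9, led by Lingo2, Ptprk and Adarb2, it was at 79.9 CPM in the knockout and 103 CPM in the control, with a UMI in 40 of 180 and 52 of 122 cells. Retinal ganglion-like cells had 42.4 and 31.8 CPM, with 60 of 120 knockout and 33 of 40 control UMIs in the top 5 cells. Over all amacrine-like cells the level was 18.7 CPM in the knockout and 27.0 CPM in the control, a ratio of 0.695 (0.564 to 0.859). Bipolar-like cells, at comparable depth, had 1.12 and 2.62 CPM.

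Mmp14, the membrane-anchored activator of Mmp2, was at 425 CPM in knockout and 417 CPM in control monocyte and macrophage-like cells (51 and 94 cells), a ratio of 1.02 (0.912 to 1.14). A UMI was found in 92.2% and 75.5% of these cells. In Müller glia-like cells it was at 66.1 CPM in the knockout and 67.1 CPM in the control, a ratio of 0.985 (0.875 to 1.11), with 7.02% and 9.502% of its UMIs in the top 5 cells. Endothelial-like cells had 52.2 and 44.5 CPM, and rod-like cells 2.68 and 3.497 CPM. Among Müller glia-like clusters with at least 20 cells in each library, N1 had 67.9 CPM in the knockout and 64.1 CPM in the control, N3 had 75.7 and 77.2 CPM, and N6 had 65.8 and 89.3 CPM. N2 had 47.4 CPM in the knockout and 70.2 CPM in the control, from 18 and 15 UMIs, a ratio of 0.675 (0.321 to 1.44), and N8 had 41.0 and 55.6 CPM, a ratio of 0.739 (0.485 to 1.11).

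Mmp2 (gelatinase A), often made by stromal cells, was sparse, with 203 UMIs in the knockout and 158 in the control library. By class, bipolar-like cells had 8.21 CPM in the knockout and 6.65 CPM in the control. Rod-like cells had 6.69 and 8.39 CPM, from 5 and 36 UMIs, and were the highest class in the control. In the bipolar-like cluster A7, led by Erbb4 and Nxph1, Mmp2 was at 20.96 CPM in the knockout and 22.9 CPM in the control. In the unnamed cluster A11, led by Gsg1 and Grik1, it was at 44.8 and 23.3 CPM. Müller glia-like cells had 36 and 14 UMIs, at 3.04 and 2.13 CPM, a ratio of 1.43 (0.753 to 2.87) whose interval includes 1 at this depth. Endothelial-like cells had none in either library, which allows up to 1.41 CPM in the knockout and 1.65 CPM in the control by a limit of 3 counts.

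Mmp3 (stromelysin-1), a broad protease that also activates other family members, and Mmp12 (macrophage elastase) were carried by very few cells. Counting only genes that reached 100 UMIs in a library's Müller glia-like cells, 5 cells held at least 50% of the gene's UMIs for 2 of 6 members in the knockout, which was so for 0.708% of genes, and for 1 of 5 in the control, against 0.737% of genes.

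Mmp3 had 268 UMIs in 21 knockout Müller glia-like cells and 15 UMIs in 4 control cells, or 22.6 against 2.28 CPM, a ratio of 9.93 (5.92 to 18.0). With cells called Müller glia one by one from their markers (354 knockout and 226 control cells, 602 Mmp3 UMIs in all) the ratio was 1.53. The top knockout cells held 88, 55, 54, 35 and 17 UMIs, together 92.9% of the total, and the control cells 6, 5, 3 and 1. The 88 UMIs came from a cell of 19261 UMIs in cluster N9 whose Müller markers summed to 14693 CPM and monocyte markers to 0. Since only 4 control cells held Mmp3, leaving out the 5 top cells of each library had to leave the control with no UMI. The knockout level was then at least 3.49-fold higher against a limit of 3 counts. With that outcome fixed beforehand, this value cannot check the difference. Most Mmp3 of both libraries was in N7 instead: 413 UMIs in 13 of 47 knockout cells and 800 UMIs in 11 of 58 control cells, or 160 against 178 CPM, and 54.9% and 94.7% of all Mmp3 UMIs. There too single cells dominated, with 240 UMIs in the top knockout and 353 in the top control cell. With N7 counted among Müller glia-like cells the ratio was 0.642, so the direction for Mmp3 turned on whether that cluster belonged to the class. Fibroblast markers summed to 201 CPM in knockout and 263 CPM in control N7 cells (5 of 8 detected in each), against 17.7 CPM (6 of 8) and 20.04 CPM (5 of 8) in Müller glia-like cells, and their part was not tested.

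Mmp12 was lower in knockout Müller glia-like cells, with 127 UMIs in 17 knockout cells and 501 UMIs in 20 control cells, or 10.7 against 76.1 CPM, a ratio of 0.141 (0.115 to 0.172). A control cell of 21112 UMIs held 332 of them and another of 32248 UMIs held 122. Müller markers summed to 9047 and 9613 CPM in these cells, and those of the monocyte list to 94.7 and 0 CPM. The top knockout cells held 40, 26, 20, 12 and 11 UMIs. Without the top 5 cells of each library the ratio was 0.384. In N10, knockout cells had 169 Mmp12 UMIs and control cells none, so with N10 counted as Müller glia-like the ratio was 0.308. In monocyte and macrophage-like cells Mmp12 was at 106 CPM in the knockout and 127 CPM in the control, a ratio of 0.837 (0.672 to 1.04), from 3 of 51 and 8 of 94 cells, with 97 and 212 UMIs in the top cell. In the top control cell the Müller list summed to 30566 CPM, above its 10758 CPM of monocyte markers, but the cell held 0 Timp3 UMIs. In the top knockout cell the Müller list summed to 1717 CPM, below its 9191 CPM of monocyte markers. The cluster of both cells had Rlbp1 at 4.4 CPM. The Müller list includes Apoe and Vim, and which of its genes made up the sums was not examined. The sums alone thus do not show what these cells were. Among Müller glia-like cells, Mmp3 and Mmp12 occurred together in 0 knockout and 3 control cells.

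**Figure D4:**
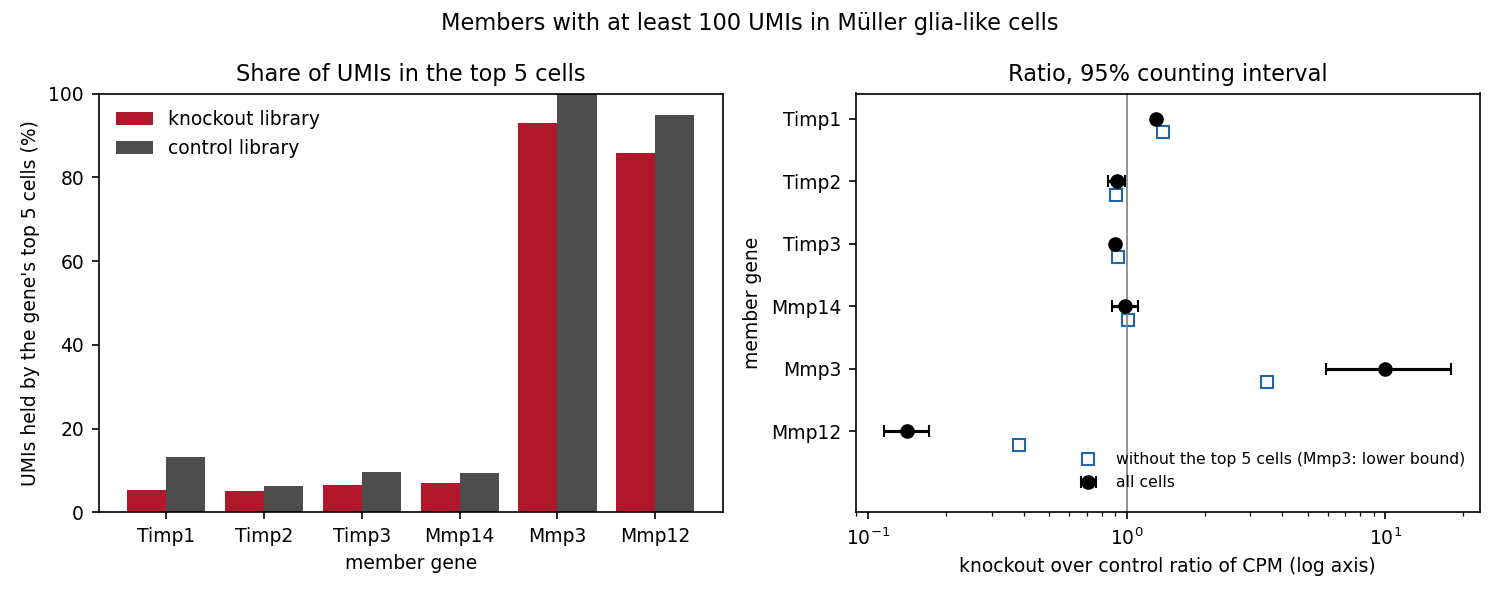
Left, share of each gene's UMIs in Müller glia-like cells that its top 5 cells hold, knockout in red and control in grey. Right, knockout over control ratio of CPM on a log axis with 95% counting intervals, and without each library's top 5 cells (squares). Mmp3 and Mmp12 have 85.8% to 100% of their UMIs in 5 cells. The Mmp12 ratio of 0.141 moves to 0.384. For Mmp3 (9.93), fewer than 5 control cells hold a UMI, so the control is left with none. Its square, at least 3.49 against a limit of 3 counts, cannot check the difference.

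Ratios in Müller glia-like cells were set beside those of all genes. Of the 6 members that reached 100 UMIs over both libraries, 1 (Mmp3) was at least 1.5-fold higher in the knockout, where 3.69% of 10639 genes were, and 1 (Mmp12) at least 1.5-fold lower, where 16.7% were. The median log2 ratio was -0.08 over the members and -0.15 over all genes. The other 4 members (Timp4, Mmp2, Mmp8 and Mmp9) were below that depth.

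Partners of the family were described from lists drawn up with earlier results of these data known, and each count is to be read against the 3.69% of all genes that were at least 1.5-fold higher in knockout Müller glia-like cells, the 16.7% that were at least 1.5-fold lower and their median log2 ratio of -0.15. Of 16 further metalloproteinase genes only Mmp16, a membrane-type member, reached 100 UMIs, at 10.2 CPM in knockout and 25.5 CPM in control Müller glia-like cells (ratio 0.4004, 0.314 to 0.509). Of 14 ADAM and ADAMTS genes, proteases that shed surface proteins or cut proteoglycans, 0 were 1.5-fold higher and 5 lower, with a median log2 ratio of -0.37 (all genes -0.15). Their extremes were Adam12 (ratio 1.38) and Adamts17 (0.317), while Adamts1 was at 633 against 672 CPM and Adamts5 at 626 against 555 CPM. Of 9 genes of plasminogen activation, a system that converts metalloproteinase precursors, 3 were at least 1.5-fold higher and 0 lower (median log2 ratio 0.49, all genes -0.15). Plaur, the urokinase receptor, was at 59.8 CPM in the knockout and 34.9 CPM in the control (ratio 1.71, 1.47 to 2.00). Plat was at 470 and 321 CPM (1.46, 1.39 to 1.54). S100a10, a plasminogen receptor subunit, was at 1354 and 965 CPM, and Plgrkt had the lowest ratio (0.809).

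Of 10 surface partners and brakes, 1 passed 1.5-fold upward and 1 downward (median log2 ratio 0.13), against 3.69% and 16.7% of all genes. Furin, the convertase that activates Mmp14, was at 96.2 CPM in the knockout and 62.7 CPM in the control (ratio 1.53, 1.37 to 1.72). Reck, a membrane-bound inhibitor of several metalloproteinases, was at 21.8 and 42.8 CPM (0.509, 0.428 to 0.604). Cd63, a Timp1-binding tetraspanin, was at 1227 and 1021 CPM, and Sdc4 at 922 and 806 CPM. Of 16 basement membrane and matrix genes, 3 passed 1.5-fold upward and 2 downward (median log2 ratio 0.02), against the same 3.69% and 16.7%. Nid1, which links laminin to collagen IV, had the largest ratio (8.82, 4.14 to 22.4), with 86.5% of its knockout UMIs in 5 cells. Col9a1 had the smallest, at 18.9 against 82.1 CPM (0.230), while Sparc was at 963 against 1014 CPM and Efemp1 at 206 against 275 CPM.

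Of 17 upstream cytokines and transcription factors, 6 passed 1.5-fold upward and 2 downward (median log2 ratio 0.07), where 3.69% and 16.7% of all genes did. Il11, an interleukin-6 family cytokine, was at 33.5 CPM in the knockout and 7.29 CPM in the control (ratio 4.60, 3.40 to 6.34). The control had 48 Il11 UMIs, and 5 cells held 39.3% of the knockout and 66.7% of the control UMIs. Il1b, an inducer of Mmp3, was at 6.58 and 39.6 CPM (0.166), with 65.1% of the control UMIs in 5 cells. The AP-1 genes Fos and Jun were at 4480 and 3105 CPM in the knockout, against 5013 and 3685 CPM in the control. Fosl1, a further AP-1 gene named here after its values were seen, was at 273 CPM in the knockout and 149 CPM in the control (ratio 1.83, 1.71 to 1.97). Of the neutrophil granule partners, 2 reached 100 UMIs in Müller glia-like cells: Lcn2, at 23874 against 27126 CPM (0.880), and Slpi, at 6.41 against 13.5 CPM (0.475).

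For each of 9 members with at least 200 UMIs over the 10 classes, the genes with the most similar levels were found by Pearson correlation of log2(CPM + 1) over the 20 values of 10 classes in both libraries. These points share the same 2 libraries and the correlations are a description. Timp1 was most like Lif (0.95), Pdlim4 (0.94) and Trf (0.93), and Timp3 most like Tcim (0.97), Fgfrl1 (0.97) and Plpp3 (0.97). Timp2 was most like Nudt4 (0.84), Specc1 (0.84) and Slco3a1 (0.81). Mmp8 was most like Lilra6, Treml2 and Tarm1 (0.99 each), and Mmp9 most like Ripor2 (0.91), Rhov (0.87) and Alcam (0.86). Mmp14 was most like Pla2g4a (0.97), Ctsh (0.96) and Cebpa (0.96), and Mmp12 most like Cyp27a1 (0.93), H2-Ab1 (0.89) and Slc7a2 (0.88). Mmp2 was most like Mmd2 (0.88), Otx2 (0.88) and Smim40 (0.87), and Mmp3 most like Ccl20 (0.85), Col5a3 (0.82) and Col16a1 (0.82).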

How the data were processed

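Single-cell RNA-seq (10x 3' v3.1) of 2 libraries, 1 per group, was analysed. The deposited values are UMI counts per gene and barcode made by the authors with Cell Ranger 6.0.0 on mm10, per the file headers and the submitters' processing notes, which also name Seurat 5.2.1. The annotation release and strand handling are not given in the sources used here. Cells with at least 500 genes and at most 25% mitochondrial UMIs were kept and clustered with Seurat 5.3.0 (2000 variable genes, 11 components, resolution 1.0; Müller glia-like cells again at 0.4). Clusters were named from marker lists, with thresholds, such as Rlbp1 of at least 50 CPM for Müller glia, set after seeing the data. Scrublet in scanpy 1.11.5 called 0 doublets in both libraries and so did not work, and doublets were left in. UMIs were summed per class and library, and ratios have exact 95% intervals that cover counting error only, since reads of 1 library are not replicates. Of 40 repeated symbols the first was used. The members and gene lists were chosen with earlier results of these data known. All members were named, and of each list the genes with the largest ratio, the smallest ratio and the 2 highest CPM, together with the 3 genes most like each member. The genes compared between cells with and without Timp1 were chosen after their values were seen. Sums and intervals came from scipy 1.17.1 under Python 3.11.15, and TMM factors from edgeR 4.0.16 under R 4.3.3. Only the ratio and its interval were tested on simulated data. Those data were Poisson class sums, which do not model UMIs held by few cells. Alternatives covered filters, clustering, cell calls, scaling, thinning and top cells.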

Additional observations from a re-analysis of the deposited data

Results flagged for a closer look

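Timp1, Timp2 and Timp3 had ratios of knockout over control that lay on opposite sides of 1 in different cell classes, with counting intervals that excluded 1. For Timp1 the ratio was 1.84 in amacrine-like and 0.602 in monocyte and macrophage-like cells. For Timp2 it was 1.38 in retinal ganglion-like and 0.573 in monocyte and macrophage-like cells. For Timp3 it was 1.56 in amacrine-like and 0.902 in Müller glia-like cells. The Müller glia-like value for Timp3 depended on the setting, being below 1 in 10 and above 1 in 4 of 14 alternatives. It was 0.994 with TMM scaling, 1.17 without N5, and 1.09 and 1.10 in Müller subclusters 0 and 1 alone. In rod-like cells Timp1 and Timp3 were also higher in the knockout library. Over all kept cells Timp1 was at 1887 CPM in the knockout and 1189 CPM in the control, and Timp3 at 501 and 420 CPM. Most Timp1 UMIs of monocyte and macrophage-like cells lay in 5 cells of each library. The part of free RNA in these ratios was not tested. These differences between classes were not tested, since each group had 1 library.

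Unnamed clusters outside the class comparisons held high levels. In N7, Timp1 was at 4266 CPM in the knockout and 3433 CPM in the control, and Mmp12 at 38.3 and 22.01 CPM, with 99 UMIs in 4 cells in each library. In N10, Timp1 was at 3199 CPM in the knockout and 2835 CPM in the control, and Mmp12 at 113 CPM in the knockout with no UMI in the 18 control cells.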

How the results depend on the processing

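No paired analysis was possible because each group had 1 library. Over 14 alternatives, which reuse the same cells, the Müller glia-like ratio of Mmp12 stayed below 1 (0.0361 to 0.384). The lowest, in Müller subcluster 0 alone, rested on a control cell with 332 of 334 UMIs. In subcluster 1 alone (0.138) a control cell held all 122. Without the top 5 cells, which include both, the ratio was 0.384. That of Timp1 ranged over 0.980 to 1.79, being above 1 in 13. It was 1.00 without N5, 1.02 in subcluster 0 alone and 0.980 in subcluster 1 alone. Timp2 ranged over 0.784 to 1.14, Timp3 over 0.885 to 1.17 and Mmp14 over 0.813 to 1.09. Mmp3 ranged over 0.194 to 15.5 and changed direction in 2: 0.194 in Müller subcluster 1 alone, from 4 UMIs in all, and 0.642 with N7. It was 1.53 when cells were called by markers. Counting N7 or N10 as Müller glia, or leaving out N5, was chosen after seeing the data. Members at least 1.5-fold higher numbered 2 with the mean of per-cell CPM or cells thinned to 2000 UMIs, and 0 in subcluster 1 alone or with N7. Members at least 1.5-fold lower numbered 2 with a minimum of 20 UMIs or with N7. The highest class was the same for 6 of 10 members when cells were called by markers (354 knockout and 226 control Müller cells), and for 7 to 10 otherwise. Mmp12 lost its highest class that way, with the mean of per-cell CPM and without the top 5 cells. Timp4 lost its highest class with cells called by markers, with the mean of per-cell CPM and with cells thinned to 2000 UMIs. TMM scaling moved all log2 ratios by 0.14. The causes were not tested. Depth limits Timp4, Mmp2, Mmp8 and Mmp9 in Müller glia-like cells.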
